A study of Mus musculus with 6 samples.

Results

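The genes described here are the metallothioneins Mt1 and Mt2 and 8 genes of iron and metal handling in mouse liver: the metal importer Slc39a14, the transferrin receptors Tfrc and Tfr2, the iron hormone hepcidin (Hamp), the iron exporter ferroportin (Slc40a1), the plasma proteins transferrin (Trf) and ceruloplasmin (Cp), and the metalloreductase Steap4. They were read in livers of 3 PiZ and 3 wild-type mice, all 6 weeks old, with 1 array per mouse. PiZ mice are transgenic for the Z form of human alpha-1 antitrypsin, a secreted protease inhibitor that misfolds and is retained in hepatocytes, and they were kept on a C57BL/6 background. The labels name neither the promoter of the transgene nor sex, litter, feeding or time of day, and the transgene was not analysed here. On the array a gene is read by 1 or several probe sets, groups of short probes against its transcript. Members were all probe sets that the platform annotation assigned to exactly 1 gene when that gene was 1 of the 10, which gave 26 of 22690 probe sets for 9 of the 10 genes. The probe set for Trf is also assigned to a second gene, so no value is given for Trf. Cp was read by 7 probe sets, Tfrc by 6, Mt1, Slc39a14, Tfr2, Hamp, Slc40a1 and Steap4 by 2 each, and Mt2 by 1.

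Metallothioneins are small cysteine-rich proteins that bind zinc, copper and cadmium. Their genes are switched on by zinc through the metal-sensing factor MTF1, which binds metal response elements, and also by glucocorticoids and inflammatory signals. Hepatocytes take up iron bound to transferrin through the transferrin receptors and other iron through Slc39a14, and they secrete hepcidin, which removes ferroportin from cell surfaces and so limits the release of iron into plasma. Iron regulatory proteins stabilise Tfrc mRNA when a cell is short of iron. Ceruloplasmin, which carries copper, oxidises iron as it leaves cells.

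The start regions of Mt1 and Mt2 are shown because both genes changed together and because metal response elements are known to lie near their starts. The windows are RefSeq sequence of GRCm38.p6, from 250 bases before to 50 bases after an annotated start, on the plus strand at chr8:94178839-94179138 for Mt1 and chr8:94172368-94172667 for Mt2. Capitals mark matches to the core of the metal response element, searched as TGCGCNC and TGCACNC on both strands.
Mt1: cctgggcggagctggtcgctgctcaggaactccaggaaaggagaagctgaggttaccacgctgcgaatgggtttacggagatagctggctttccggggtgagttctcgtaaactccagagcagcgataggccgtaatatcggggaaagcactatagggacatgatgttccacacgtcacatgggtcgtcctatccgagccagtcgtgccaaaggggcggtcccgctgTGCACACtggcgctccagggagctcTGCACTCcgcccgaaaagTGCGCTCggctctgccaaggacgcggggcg
Mt2: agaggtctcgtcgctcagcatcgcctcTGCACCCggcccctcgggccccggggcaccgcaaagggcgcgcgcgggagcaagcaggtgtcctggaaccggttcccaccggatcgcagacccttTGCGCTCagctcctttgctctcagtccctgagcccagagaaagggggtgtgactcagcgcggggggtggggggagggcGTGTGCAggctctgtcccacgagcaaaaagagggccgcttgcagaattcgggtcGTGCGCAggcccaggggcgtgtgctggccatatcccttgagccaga
The Mt1 window held 3 matches and the Mt2 window 4, none of them overlapping. Not all lay before the annotated start. In the Mt1 window those at bases 253 to 259 and 271 to 277 lay after it, as did that at 255 to 261 in the Mt2 window. Of 32851 windows of the same length in the table, 1.97% held at least 3 and 0.517% at least 4. Windows were found for 7 of the 10 genes. Besides Mt1 and Mt2, a match was found only in 1 of the 2 Tfrc windows, where 2 matches overlapped. A match describes letters in a window and is not a measured binding site.

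Values below are log2 intensities, and differences are PiZ minus wild-type on that scale, from limma fitted across 22639 probe sets. Each has its standard error (SE), and every group holds 3 arrays. A probe set passed the test at an adjusted p below 0.05 (Benjamini-Hochberg over all probe sets fitted). Of the 26 member probe sets, 4 were higher and 6 lower in PiZ liver and 16 did not pass. Among all probe sets 8.91% were called higher and 10.2% lower, 19.1% in all, against 10 of 26 (38.5%) here. The groups did not overlap for 15 of the 26, where 42.0% of all probe sets had groups that did not overlap. The median difference of the 26 was 0.12, and that of all probe sets 0.075.

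RNA quality differed between arrays. The difference between the 3′ and the 5′ control probe sets of Gapdh, called 3′ bias here, which grows when RNA is shortened, was 1.99, 4.39 and 4.01 in PiZ replicates 1, 2 and 3, against 1.49 to 2.06 in wild-type. For Actb it was 3.02, 4.89 and 4.66 in PiZ, against 2.90 to 3.34 in wild-type. PiZ replicates 2 and 3 correlated at 0.993 across probe sets, PiZ replicate 1 with them at 0.978 and 0.982, and wild-type arrays with each other at 0.996 to 0.997. With the wild-type arrays, PiZ replicate 1 correlated at 0.982 to 0.983 and PiZ replicates 2 and 3 at 0.962 to 0.970. By this measure PiZ replicate 1 was as near to wild-type as to its own group. With PiZ replicate 1 alone against wild-type, 2 member probe sets were higher and 5 lower. The mean over 6 hepatocyte markers was 13.82 to 14.17 in PiZ and 13.90 to 13.97 in wild-type, near the top of the array's range. By the test 1 of them rose (Tat, by 1.12) and 0 fell. Their median difference was -0.22. The groups did not overlap for 5 of the 6, against 44.8% of all genes by their brightest probe set. Of these, 1 was higher in PiZ (Tat) and 4 were lower, by differences of -0.40 to -0.19. In whole liver, fewer cells of a type and less RNA per cell cannot be told apart.

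Both metallothionein genes were higher in every PiZ liver than in any wild-type liver. Mt2, through probe set 1428942_at, read 12.79, 13.03 and 12.68 in PiZ replicates 1, 2 and 3, against 7.83, 9.37 and 10.90 in wild-type. The PiZ mice lay within 0.34 of each other, while the wild-type mice spanned 3.07, with wild-type replicate 3 the highest. The difference was 3.47 (SE 0.66, limma adjusted p = 0.0137), or 11.1-fold, and only 18 of the 22639 probe sets had a larger rise.

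Mt1 was read by 2 probe sets that passed. Probe set 1422557_s_at, whose suffix marks probes that can match transcripts of more than 1 gene, read 13.62, 13.75 and 13.60 in PiZ, against 10.23, 10.84 and 12.29 in wild-type. As with Mt2, the wild-type values were widely spread and replicate 3 was the highest. The difference was 2.53 (SE 0.46, limma adjusted p = 0.012), or 5.79-fold. Probe set 1451612_at read 9.31, 9.94 and 9.11 in PiZ, against 6.41, 5.60 and 6.16 in wild-type. Here the wild-type mice spanned only 0.81 and replicate 3 was not the highest, unlike in the other metallothionein probe sets. Its difference of 3.40 (SE 0.27, limma adjusted p = 0.000833) was 10.5-fold and held its call in all 16 alternatives in which it was fitted.

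For Mt2 and Mt1 1422557_s_at, the size of the rise depended on which wild-type mouse was left out. Mt2 stood at 2.70 (6.50-fold, limma adjusted p = 0.024) without wild-type replicate 1 and at 4.23 (18.8-fold, limma adjusted p = 0.00916) without wild-type replicate 3. Mt1 1422557_s_at stood at 2.09 (limma adjusted p = 0.0368) and 3.12 (limma adjusted p = 0.00237) in the same fits. Their calls were lost in other fits: without wild-type replicate 2, Mt1 1422557_s_at stood at 2.39 (limma adjusted p = 0.0537) and Mt2 at 3.47 (limma adjusted p = 0.0551), and without PiZ replicate 3 Mt2 stood at 3.54 (limma adjusted p = 0.0532). PiZ replicate 1, whose 3′ bias lay within the wild-type range, stood 2.50 and 3.26 above the wild-type mean in the Mt1 probe sets and 3.43 above it in Mt2. On that array alone the limma adjusted p was 0.0579 for Mt1 1422557_s_at and 0.0657 for Mt2, and with 3′ bias as a model term Mt2 stood at 3.32 (limma adjusted p = 0.0628).

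**Figure D1:**
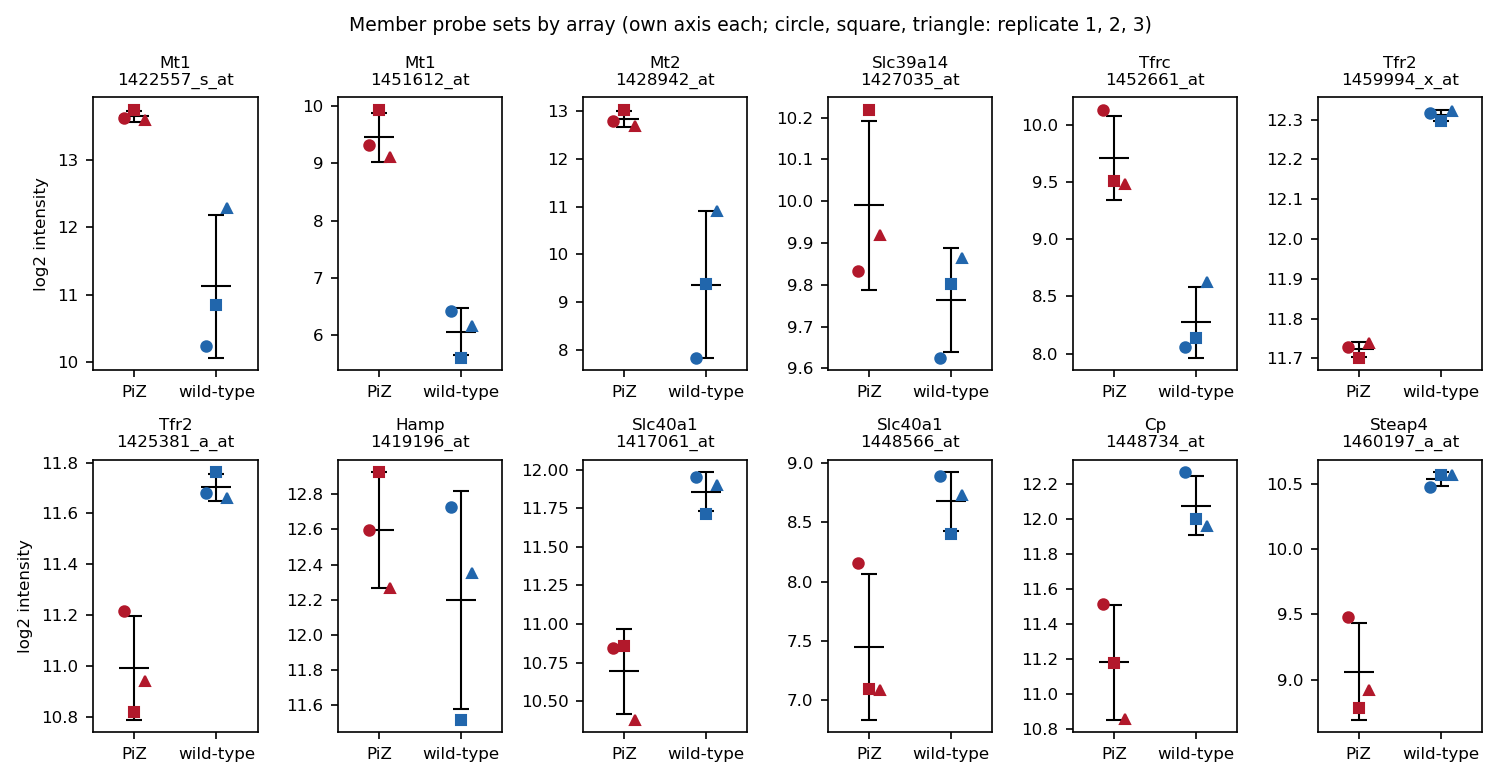
Log2 intensity of 12 member probe sets by array, PiZ (red, left) and wild-type (blue, right), with circle, square and triangle for replicates 1, 2 and 3 and with the mean and SD in black. Each panel has its own axis. Mt2 is tightly grouped in PiZ (12.68 to 13.03) and spread in wild-type (7.83 to 10.90), and among the panels only Slc39a14 and Hamp have overlapping groups.

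Tfrc, the receptor that brings transferrin-bound iron into cells, was higher in PiZ liver. Probe set 1452661_at read 10.13, 9.51 and 9.48 in PiZ, against 8.06, 8.14 and 8.63 in wild-type, without overlap. The difference was 1.44 (SE 0.22, limma adjusted p = 0.00751), or 2.70-fold, and the call held in all 17 alternatives. PiZ replicate 1 was the highest of all arrays, 1.86 above the wild-type mean, against 1.24 and 1.21 in PiZ replicates 2 and 3.

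The other 5 Tfrc probe sets read between 2.93 and 4.84 in all 6 arrays, close to or below the lower quartile of the arrays (4.28 to 4.46), and their differences ran from 0.11 to 0.35 without passing. They include 3 quality control probe sets that the array places along the Tfrc transcript. The 3′ set read 3.58, 3.81 and 3.81 in PiZ, against 3.36, 3.39 and 3.41 in wild-type (0.35, SE 0.11, limma adjusted p = 0.0642). The 5′ set read 3.06, 3.11 and 3.07 in PiZ, against 2.93, 2.95 and 3.03 in wild-type (0.11, SE 0.10). The Tfrc rise was thus called in 1 of 6 probe sets, the only one above the dim range. Erythroid precursors are rich in Tfrc, and of 7 measured erythroid markers 0 rose and 1 fell (Klf1, -1.25, limma adjusted p = 0.00274). Over all genes 9.97% were called higher and 11.2% lower. The mean over those markers was 4.77 to 4.91 in PiZ and 5.01 to 5.04 in wild-type, and 5 of the 7 averaged below 5. Such dim markers say little, and the part of erythroid cells in the Tfrc result was not tested.

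Tfr2, a hepatocyte receptor that senses transferrin iron and promotes hepcidin, was lower in PiZ liver by both probe sets. Probe set 1459994_x_at read 11.73, 11.70 and 11.74 in PiZ, against 12.32, 12.30 and 12.32 in wild-type. Each group was tightly packed around its mean and the groups lay apart, with a difference of -0.59 (SE 0.10, limma adjusted p = 0.00857). Probe set 1425381_a_at read 11.22, 10.82 and 10.94 in PiZ, against 11.68, 11.76 and 11.66 in wild-type, and differed by -0.71 (SE 0.13, limma adjusted p = 0.0124). These are small differences. The first call was lost without wild-type replicate 1 or 3 (limma adjusted p = 0.0503 and 0.0508), and the second without any 1 of the wild-type arrays (0.0563 to 0.0595) and with 3′ bias in the model (-0.49, limma adjusted p = 0.0516).

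Slc39a14 (ZIP14), which imports zinc, manganese and iron not bound to transferrin and is known to respond to inflammation in liver, did not pass in either probe set. Probe set 1427035_at read 9.83, 10.22 and 9.92 in PiZ, against 9.63, 9.80 and 9.87 in wild-type, and the groups overlapped. Its difference was 0.23 with a 95% interval of -0.10 to 0.55 (limma adjusted p = 0.269). Probe set 1425649_at read 6.81, 7.21 and 6.75 in PiZ, against 6.40, 6.66 and 6.70 in wild-type. The groups did not overlap there, and the difference of 0.34 had an interval of -0.031 to 0.70 (limma adjusted p = 0.163). PiZ replicate 2 was the highest array in both.

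Hamp, the gene of the hormone hepcidin, did not pass the test, while the mRNA of its target ferroportin was lower. Hepcidin acts on ferroportin protein, which was not measured here. Hamp read 12.60, 12.93 and 12.27 in PiZ, against 12.73, 11.51 and 12.35 in wild-type, in probe set 1419196_at. Wild-type replicate 2 was the lowest and PiZ replicate 2 the highest, and the remaining arrays of both groups overlapped. The difference was 0.40 with a 95% interval of -0.33 to 1.13 (limma adjusted p = 0.38), which holds both 0 and a rise of 1 on the log2 scale. Probe set 1419197_x_at, some of whose probes can match other sequences, gave 12.28, 12.63 and 11.90 in PiZ, against 12.33, 11.30 and 12.10 in wild-type, with a difference of 0.36 (SE 0.29, limma adjusted p = 0.4). Neither Hamp probe set passed in any of the alternatives in which it was fitted.

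Slc40a1 (ferroportin) is the exporter through which hepatocytes and macrophages release iron, and both of its probe sets were lower in PiZ liver. Probe set 1417061_at read 10.84, 10.86 and 10.38 in PiZ, against 11.95, 11.71 and 11.90 in wild-type. Every PiZ mouse was below every wild-type mouse, and the difference was -1.16 (SE 0.16, limma adjusted p = 0.00509), a 2.24-fold lower level whose call held in all 17 alternatives. Probe set 1448566_at read 8.16, 7.10 and 7.09 in PiZ, against 8.89, 8.40 and 8.73 in wild-type (-1.23, SE 0.30, limma adjusted p = 0.0293). In this probe set PiZ replicate 1 was 0.52 below the wild-type mean, and PiZ replicates 2 and 3, the arrays with larger 3′ bias, were each 1.58 below it.

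The difference in 1448566_at varied with the arrays used. It was -0.45 (limma adjusted p = 0.0866) with 3′ bias in the model and -0.52 (limma adjusted p = 0.127) in PiZ replicate 1 alone, and it lost its call without any 1 of the wild-type arrays or of PiZ replicates 2 and 3 (limma adjusted p = 0.0647 to 0.112). Since macrophages also express ferroportin, macrophage markers are given beside it. Of 10 measured, 3 rose (Marco by 0.97, Cd5l by 0.67 and Clec4f by 0.64) and 0 fell. Over all genes 9.97% were called higher and 11.2% lower. The mean of these markers was 9.04 to 9.48 in PiZ and 8.98 to 9.14 in wild-type. Another macrophage gene, Cd163, was placed in an iron list below and not among these markers. It fell by 0.56 (SE 0.12, limma adjusted p = 0.018), a call lost in 4 of the 6 fits that left out an array. The part of macrophages in the ferroportin result was not tested.

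**Figure D2:**
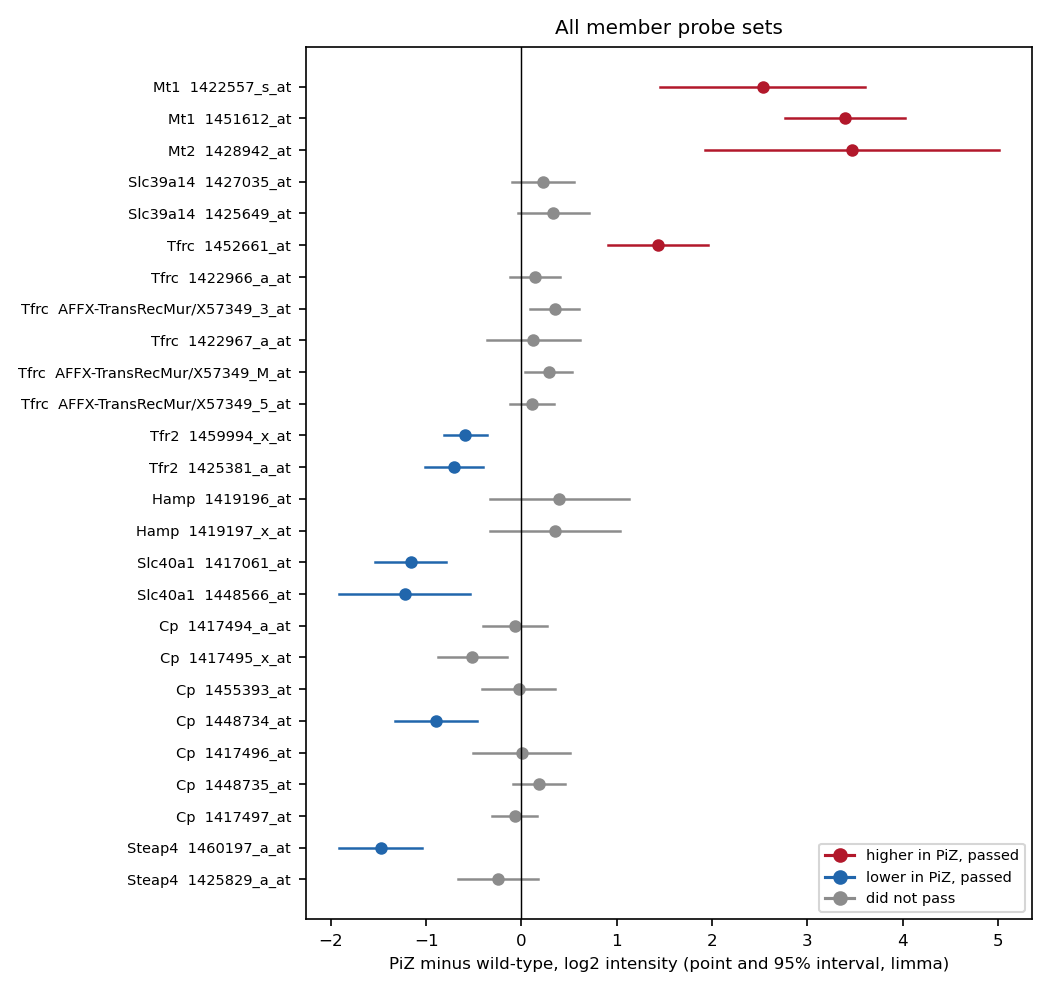
PiZ minus wild-type difference in log2 intensity of all 26 member probe sets, as points with 95% intervals from limma, in red where higher and blue where lower at an adjusted p below 0.05, and in grey where the test was not passed. Mt1 and Mt2 stand furthest right (2.53 to 3.47), Steap4 furthest left (-1.48), and the 7 Cp probe sets run from -0.90 to 0.18.

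Steap4, a metalloreductase that reduces iron and copper before their transport and is known to respond to inflammation, was lower in PiZ liver in its brighter probe set. Probe set 1460197_a_at read 9.48, 8.78 and 8.92 in PiZ, against 10.48, 10.57 and 10.57 in wild-type. The wild-type mice lay within 0.092 of each other, and all PiZ mice lay at least 1.06 below their mean. The difference of -1.48 (SE 0.19, limma adjusted p = 0.00369) was 2.79-fold, and the call held in all 17 alternatives, with values from -1.69 to -1.05. The dim probe set 1425829_a_at read 4.90, 4.34 and 4.92 in PiZ, against 5.10, 4.82 and 4.99 in wild-type, and did not pass (-0.25, SE 0.18).

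Ceruloplasmin gave no single answer across its 7 probe sets. The brightest, 1417494_a_at, read 13.52, 13.99 and 13.75 in PiZ, against 13.88, 13.86 and 13.71 in wild-type, with overlapping groups and a 95% interval of the difference of -0.40 to 0.27. Probe set 1448734_at read 11.51, 11.17 and 10.85 in PiZ, against 12.27, 12.00 and 11.96 in wild-type, and was the only Cp probe set to pass (-0.90, SE 0.18, limma adjusted p = 0.0172). Probe set 1417495_x_at read 12.67, 12.76 and 12.27 in PiZ, against 13.23, 13.04 and 12.98 in wild-type (-0.52, SE 0.16, limma adjusted p = 0.0566). These were also the only 2 Cp probe sets whose groups did not overlap.

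The remaining Cp probe sets differed by -0.072 to 0.18 and did not pass. Probe set 1417496_at read 9.19 in PiZ replicate 1 but 10.10 and 9.73 in PiZ replicates 2 and 3, around wild-type values of 9.71, 9.69 and 9.60. The Cp call was lost without any 1 of the wild-type arrays or of PiZ replicates 2 and 3 (limma adjusted p = 0.0503 to 0.0804) and with 3′ bias in the model (-0.56, limma adjusted p = 0.1). The files do not give where in the transcript a probe set lies, so the disagreement cannot be assigned to transcript forms here.

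**Figure D3:**
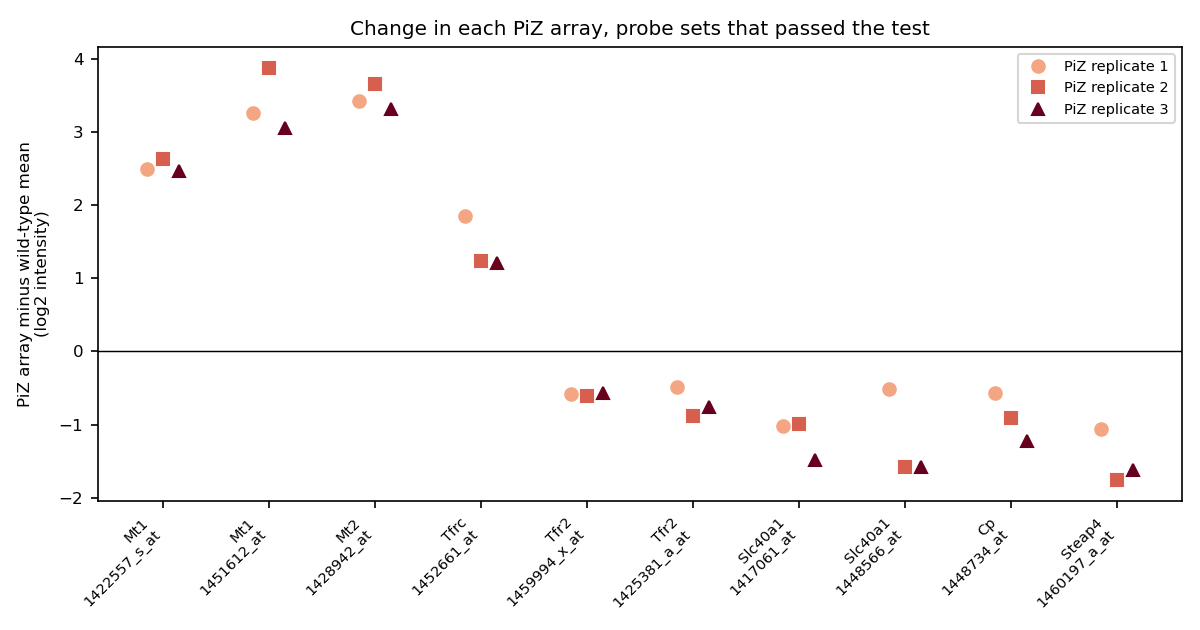
Difference of each PiZ array from the wild-type mean in log2 intensity, for the 10 member probe sets that passed, with circles, squares and triangles for PiZ replicates 1, 2 and 3. All 30 points lie on the side of their group difference. PiZ replicate 1 is the highest for Tfrc (1.86) and the nearest to 0 for Slc40a1 1448566_at (-0.52), Cp (-0.56) and Steap4 (-1.06).

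Other genes of these pathways were described through 6 lists, each gene by its brightest probe set. Among all 12394 genes read this way, 9.97% were called higher and 11.2% lower, and the median difference was 0.078. The groups did not overlap for 44.8% of all genes. Of 93 measured list genes 11 were higher and 15 lower (28.0%, against 21.2% of all genes), with a median of -0.041. The groups did not overlap for 47 of them. The number of list genes called was 9 without wild-type replicate 1 or 3, 13 without wild-type replicate 2, 14 without PiZ replicate 3 and 50 without PiZ replicate 1. Calls over all genes moved with it: 9.68% of list genes and 6.23% of all genes were called without wild-type replicate 3, and 53.8% and 48.5% without PiZ replicate 1.

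Of 18 measured genes of zinc transport and MTF1, 2 rose and 3 fell, with a median of 0.014; the called changes named here were all under 1 in size. Slc39a3, an importer at the plasma membrane, rose by 0.61 (SE 0.14) and Slc39a7, which releases zinc from the endoplasmic reticulum, by 0.56 (SE 0.14). Slc30a9, a mitochondrial zinc exporter named after its value was seen, fell by 0.48 (SE 0.10). The importers Slc39a8, also a carrier of manganese and iron, and Slc39a1 fell by 0.61 (SE 0.16) and 0.48 (SE 0.10), with limma adjusted p of 0.0186 to 0.0352 over these 5 genes. The other Slc39a3 probe set read 0.0023 and the other Slc39a8 probe set 0.022, and each of the 5 calls was lost in 4 or 5 of the 6 fits that left out an array. Slc39a8 and Slc39a1 also lost theirs after cyclic loess, and Slc39a3 and Slc39a8 with 3′ bias in the model. Slc30a10, a manganese exporter, had no probe set of its own here. Mtf1, the zinc sensor of metallothionein genes, read 7.06, 7.99 and 7.80 in PiZ, against 7.23, 7.40 and 7.46 in wild-type, and did not pass (0.25, SE 0.23). Slc30a1, the zinc exporter that MTF1 also controls, read 7.28, 7.20 and 6.95 in PiZ, against 7.55, 7.41 and 7.57 in wild-type. That difference of -0.37 (SE 0.13, limma adjusted p = 0.0775) did not pass. The part of MTF1 in the metallothionein values was not tested.

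Of 23 measured genes that control hepcidin, 1 rose and 5 fell, with a median of -0.20. Socs3, the feedback inhibitor and target of STAT3 signalling, read 6.43, 6.98 and 6.74 in PiZ, against 8.28, 9.83 and 8.88 in wild-type (-2.28, SE 0.36, limma adjusted p = 0.00806), and all 3 of its probe sets differed by -2.34 to -1.53. The BMP receptor genes Acvr1 and Bmpr1a fell by 1.96 (SE 0.38) and 0.77 (SE 0.13), although their probe sets ran from -1.96 to 0.12 and from -0.88 to 0.12. Acvr1 stood at -0.96 with 3′ bias in the model and -1.01 in PiZ replicate 1 alone, and its call was lost in 4 of the 6 fits that left out an array. Cebpa, a hepatocyte factor that acts on the Hamp promoter, fell by 0.78 (SE 0.13). The remaining calls, named after their values were seen, were the activin receptor gene Acvr2a, which fell by 0.65 (SE 0.11), and Atoh8, a BMP-responsive factor, which rose by 0.67 (SE 0.13). The BMP targets Smad7 and Id1 and the ligand Bmp6 did not pass: Smad7 differed by -0.23 (SE 0.11), Id1 by -0.20 (SE 0.37) and Bmp6 by -0.35 (SE 0.12), the last at a dim 5.03 to 5.22 in PiZ and 5.35 to 5.63 in wild-type. The iron sensor partner Hfe (0.36, SE 0.17), the stress-activated hepatocyte factor Creb3l3 (-0.26, SE 0.11) and the interleukin 6 receptor Il6ra (0.30, SE 0.33) did not pass either. Tmprss6, the protease that restrains hepcidin, had no probe set of its own here.

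**Figure D4:**
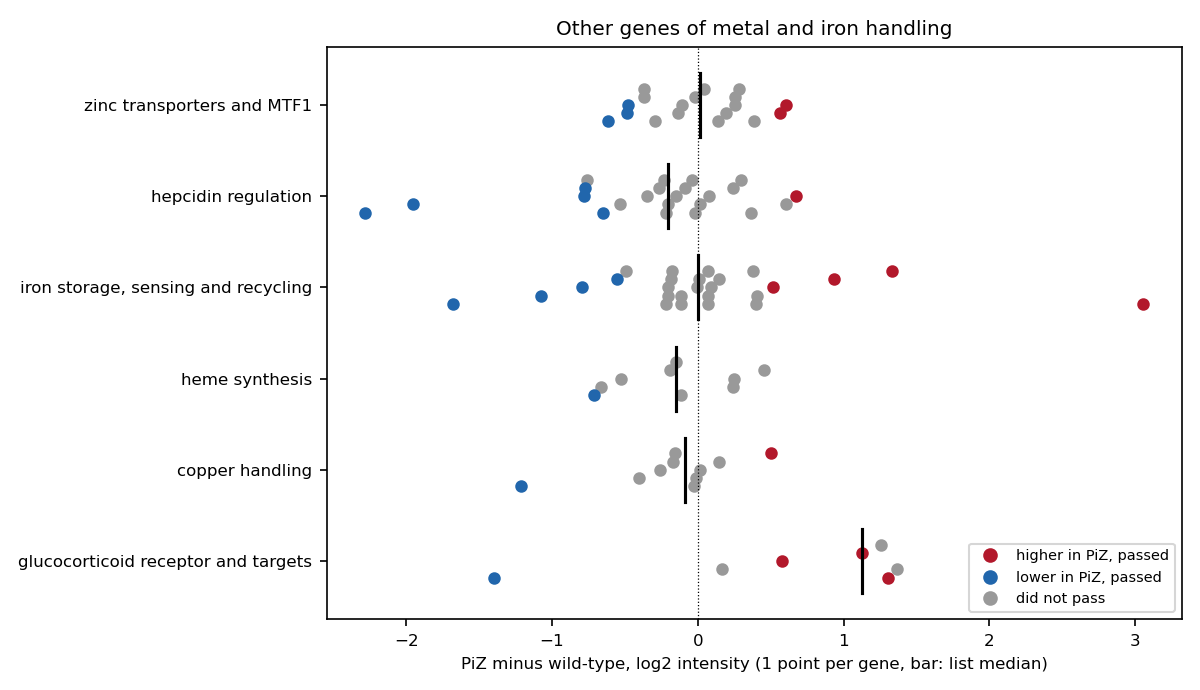
PiZ minus wild-type difference in log2 intensity of 93 genes in 6 lists, 1 point per gene (brightest probe set), red where higher, blue where lower and grey where the test was not passed, with a bar at each list's median. Lcn2 stands at 3.06 and Socs3 at -2.28, and the medians of all lists except the glucocorticoid list (1.12) lie between -0.20 and 0.014.

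Among genes of iron storage, sensing and recycling, 4 of 26 rose and 4 fell (median 0.0046). Lcn2, a protein that binds iron-carrying siderophores, read 8.70, 8.20 and 8.33 in PiZ, against 5.10, 5.36 and 5.60 in wild-type (3.06, SE 0.18, limma adjusted p = 0.000221). Blvrb, a reductase of the heme breakdown pathway, rose by 1.33 (SE 0.14). Ireb2, which encodes an iron regulatory protein that stabilises Tfrc mRNA, read 8.47, 7.69 and 7.32 in PiZ, against 9.50, 9.38 and 9.63 in wild-type (-1.68, SE 0.27, limma adjusted p = 0.00847), and stood at -1.03 both with 3′ bias in the model and in PiZ replicate 1 alone, past the threshold in each. The other iron regulatory protein gene, Aco1, differed by -0.20 (SE 0.11) without passing. Lrp1, the receptor for heme bound to hemopexin, fell by 1.08 (SE 0.11). The other calls were named after their values were seen. Slc25a28, a mitochondrial iron importer, and Slc48a1, a heme transporter, rose by 0.93 (SE 0.16) and 0.52 (SE 0.14). The ferritin cargo receptor Ncoa4 and the macrophage hemoglobin receptor Cd163 fell by 0.79 (SE 0.21) and 0.56 (SE 0.12). Ncoa4 ran from -1.04 to -0.26 over the alternatives, and its other probe set read -0.31. Its call was lost with 3′ bias in the model and in 5 of the 6 fits that left out an array. Slc48a1 and Cd163 each lost theirs in 4 of those 6 fits. The ferritin heavy chain Fth1 read 13.90, 13.37 and 13.47 in PiZ, against 13.53, 13.44 and 13.57 in wild-type, with an interval of the difference of -0.29 to 0.43, although its other probe set read -0.74. Heme oxygenase Hmox1 (0.012, SE 0.16), hemopexin Hpx (0.15, SE 0.10) and the ferrireductase Steap3 (-0.17, SE 0.16) did not pass, and Ftl1 had no probe set of its own here.

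Heme synthesis and copper genes gave few calls. Of 9 heme genes, 0 rose and 1 fell (median -0.15): Abcb10, a mitochondrial transporter, by 0.71 (SE 0.11, limma adjusted p = 0.00831). Of 10 copper genes, 1 rose and 1 fell (median -0.089). The copper chaperone Cox17 rose by 0.50 (SE 0.11), a call lost in 5 of the 6 fits that left out an array, and Xiap, an apoptosis inhibitor that binds copper, fell by 1.21 (SE 0.18) while its 6 probe sets ran from -1.21 to 0.43. The copper pump Atp7b, which loads ceruloplasmin, was dim (4.84 to 5.08 in PiZ, 4.99 to 5.29 in wild-type) and did not pass.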

How the data were processed

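Liver RNA of 3 PiZ and 3 wild-type mice was read on single-colour Affymetrix arrays. The authors deposited log2 intensities per probe set; the submitters' processing notes name affy and RMA. RMA subtracts background, gives the probes of all arrays 1 distribution and then summarises them by probe set, which hides any shift common to most genes. The deposited probe set values still differed slightly between arrays, with medians of 6.13 to 6.19 and lower quartiles of 4.28 to 4.46. For software versions, chip definition and build, the sources used here give nothing. Values ran from 2.30 to 14.98, a log2 range.

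Of 22690 probe sets, 51 control sets without a mouse gene were left out and 13 control sets named for 1 mouse gene were kept. The annotation gave 20393 probe sets 1 gene, 691 several and 1606 none. The test was limma's moderated one (version 3.58.1, R 4.3.3; lmFit and eBayes), two-sided, Benjamini-Hochberg adjusted, at 0.05. Tested on data simulated for this comparison (22639 probe sets, 200 changed), it called 88% of changes of 1 and 98% of changes of 2 on the log2 scale, with 13 of 199 calls false. Whether these shares hold for the arrays read here, which differed in spread and in 3′ bias, was not tested. Tables and figures used Python 3.11.15, pandas 2.3.3 and matplotlib 3.10.9.

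Members, lists and alternatives were chosen with earlier results of these data known. Named were every member probe set, up to 4 called genes per list by size whose groups did not overlap, and a fixed set of 19 genes; 7 further called genes were named after their values were seen. For Mt1, Mt2, Hamp and Slc39a14 the 3 most similar genes were also taken. The labels call the arrays biological replicates, and their number limits the precision. Alternatives changed the normalization or scaling, the probe sets tested, the variance model, the threshold and the arrays used, or added the replicate number or 3′ bias (Gapdh and Actb averaged) to the model.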

Additional observations from a re-analysis of the deposited data

How the results depend on the processing

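The 10 member calls kept their direction under all 17 alternatives, where fitted, and 31 of their 166 refits lost the call. Leaving out 1 array gave 2 to 6 member probe sets higher, 2 to 7 lower, and 9 to 50 list genes called; over all probe sets the share called moved from 5.47% without wild-type replicate 3 to 46.6% without PiZ replicate 1. The low counts came without wild-type arrays. There were 2 higher without wild-type replicate 2, and 2, 3 and 2 lower without wild-type replicates 1, 2 and 3. Leaving out PiZ replicate 1 also removed 1 array, and 13 member probe sets were then called. The cause of the low counts was not tested. With PiZ replicate 1 alone, a lone array assumed to vary like wild-type, 2 were higher, with an adjusted p below 0.01 2 were higher and 3 lower, with 1 probe set per gene 3 were lower, and with 3′ bias in the model 3 were lower. Array weights gave 50 list genes (48.6% of all probe sets called) and the 0.01 threshold 10. With the replicate number as a block (replicate block) 4 member probe sets were higher, 7 lower and 29 list genes called; same-numbered arrays deviated together at r = 0.30, 0.30 and -0.041, so the numbers were not taken as pairs. Centring on reference genes gave 31.2% higher among all calls, against 46.6% in the main comparison. The 7 reference genes measured differed between the groups themselves, from -0.72 (Tbp) to 0.90 (Ywhaz), with 2 called higher and 1 lower. Of 26 called list genes, 8 (Abcb10, Lcn2, Ireb2, Xiap, Lrp1, Blvrb, Socs3, Slc25a28) kept their call without any 1 array. Over all alternatives the adjusted p ran from 0.00565 to 0.0657 for Mt2, from 0.00237 to 0.0579 for Mt1 1422557_s_at and from 0.000159 to 0.0327 for Slc40a1 1417061_at.

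Signs turned only among values that had not passed; the cause was not tested. After cyclic loess Tfrc 1422967_a_at read -0.0015, the 5′ Tfrc control set -0.0087, Cp 1417494_a_at 0.062, Cp 1455393_at 0.10 and Hmox1 -0.025. Cp 1455393_at read 0.071 after quantile normalization, and Cp 1417496_at -0.028 and Hmox1 -0.019 after centring. With array weights Cp 1455393_at read 0.016, Hmox1 -0.064 and Fth1 -0.030. With 3′ bias in the model Tfrc 1422967_a_at read -0.089, Cp 1417496_at -0.52, Steap4 1425829_a_at 0.018, Mtf1 -0.33, Id1 0.076 and Il6ra -0.52. In PiZ replicate 1 alone Tfrc 1422967_a_at read -0.12, Cp 1417496_at -0.48 (limma adjusted p = 0.0395), Mtf1 -0.30, Id1 0.12 and Il6ra -0.45. Leaving out 1 array gave -0.12 to 0.25 for Tfrc 1422967_a_at, -0.18 to 0.053 for Cp 1417494_a_at, -0.18 to 0.12 for Cp 1455393_at, -0.21 to 0.24 for Cp 1417496_at, -0.48 to 0.24 for Id1, -0.14 to 0.13 for Hmox1, -0.090 to 0.17 for Fth1 and -0.014 to 0.67 for Il6ra. Without detection calls, little can be said of dim probe sets.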

Other observations

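Glucocorticoids are known inducers of metallothionein genes, and the receptor gene and some targets of that hormone made up 1 of the lists. Whether glucocorticoids had a part in the metallothionein values was not tested. Of 7 measured, 3 rose and 1 fell, where 9.97% of all genes were called higher and 11.2% lower. The median was 1.12, against 0.078 over all genes. The gene that fell was the receptor gene, and every target had a positive difference. This list was picked with earlier results of these data known, so its median and shared direction are descriptions only. The targets Zbtb16 (1.37, SE 0.53), Sgk1 (1.26, SE 0.46) and Fkbp5 (0.16, SE 0.20), named after their values were seen, did not pass. For Sgk1 and Fkbp5 the groups overlapped. Per1, a clock gene with a glucocorticoid response, read 8.59, 9.34 and 8.64 in PiZ, against 6.93, 7.76 and 7.97 in wild-type (1.30, SE 0.31, limma adjusted p = 0.0272). The amino acid enzyme Tat rose by 1.12 (SE 0.28; 1.84 with 3′ bias in the model) and Tsc22d3, an anti-inflammatory target, by 0.58 (SE 0.15). The receptor gene Nr3c1 read 8.72, 7.97 and 7.73 in PiZ, against 9.64, 9.50 and 9.48 in wild-type (-1.40, SE 0.24, limma adjusted p = 0.0102), while its 3 probe sets ran from -1.40 to -0.018. The calls of Per1, Tat and Tsc22d3 were lost without any 1 of the wild-type arrays and without PiZ replicate 3, those of Per1 and Tsc22d3 also without PiZ replicate 2, and that of Nr3c1 without wild-type replicate 1. The time of day of sampling is not in the labels, and its part in the values of Per1 was not tested.

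Profiles were compared as the root mean square difference over the 6 arrays, each value taken from its own wild-type mean, among 7398 genes averaging at least 6. The gene most like Mt2 was Mt1 (0.74), followed by Cyp2b9 (0.78) and Lcn2 (0.82). Mt1 was taken here through 1422557_s_at, whose probes can match transcripts of more than 1 gene, and 1451612_at was not compared. The genes most like the brightest Mt1 probe set were Gstm3 (0.57), Slc20a1 (0.58) and Ica1 (0.59). Hamp was nearest to Epha2 (0.26), Fcgr4 (0.27) and Pla2g12a (0.27), and Slc39a14 to Mphosph8 (0.0485), Usf1 (0.0546) and Rasgrf1 (0.0600). These are descriptions of 6 arrays, and genes with small differences come close to many others.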
